A study of Apis mellifera with 96 samples.

Results

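Mrjp8 and Mrjp9 are 2 of the 9 major royal jelly protein genes of the honey bee, Apis mellifera, and were taken by name as 2 rows of a table of 9935 genes. Every value below is for these rows unless another gene is named. The table holds read counts from whole adult workers, made with TagSeq, a method that counts reads from the 3' ends of transcripts. The bees were wild type and untreated. The study asks how life history relates to imidacloprid susceptibility, and the labels place no insecticide-exposed bee among these libraries. Workers from 6 origin colonies (107, 109, 115, 122, 127 and 137) were put as 1-day-old adults into 3 nuclear hives with queens of their own, and were caught on day 26 or day 7 as foragers or as nurses. The 92 libraries analysed were 24 of foragers at day 26, 24 of nurses at day 26, 22 of foragers at day 7 and 22 of nurses at day 7, in 24 groups of colony, role and day with 2 to 4 libraries each. A forager at day 7 and a nurse at day 26 therefore hold their role earlier or later in life than usual, which lets role and day be compared separately. The labels name the whole bee as the tissue, give no hive for a library and do not say whether a library is 1 bee or a pool, so the p-values cover only differences from library to library, which may be technical in part.

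Royal jelly proteins descend from the yellow proteins of insects. Most of the family is made in the hypopharyngeal glands of nurses and secreted as food for larvae and queens, and foragers' glands turn instead to enzymes that process nectar. Mrjp9 is regarded as the most ancestral member of the family. Mrjp8 and Mrjp9 are expressed at low levels in many tissues, are not principal components of the jelly, and their proteins have been found in worker venom. In whole bees, fewer cells of a type and less RNA per cell cannot be told apart.

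Both genes were counted in every library. Counts ran from 21 to 316 for Mrjp8 and from 25 to 448 for Mrjp9, in libraries of 197805 to 2300891 counts on genes. Levels are given as CPM, each count relative to its library's total scaled by a trimmed-mean (TMM) factor, and differences as log2 fold changes ± SE from edgeR's quasi-likelihood test, with Benjamini-Hochberg adjustment over 6753 genes and a threshold of 0.05. Counts of all 16 markers of gland, fat body, eye, muscle, venom gland and nerve were found, 14 of them in every library. 5 libraries went against their role in Mrjp1, the main jelly gene: 4 nurse libraries had 922 to 2920 CPM, under the forager median of 3012 CPM, and 1 forager library had 68000 CPM, above the nurse median of 64669 CPM. A further 4 libraries, 3 of colony 115 and 1 of colony 122, departed from their own colony's median in 1 mitochondrial transcript, KEF36_p13. Its log2 level was taken relative to the median mitochondrial gene of a library. It was -1.28 to 0.06 in the 3, and 4.06 to 5.22 in the rest of colony 115. In the 1 of colony 122 it was 2.60, against -1.19 to 0 in the rest. The other colonies ranged from -1.49 to 0.87, so colony 115 stood apart. Whether the 4 carry the right colony label was not tested. Within groups, 3 pairs of libraries differed much less than usual (1.62 to 4.05 chi-square units per gene, against a median of 17.4 over 133 pairs). The pairs of colony 127 foragers at day 26 and colony 107 nurses at day 7 shared a replicate number in the labels. That of colony 122 nurses at day 26 did not.

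Both genes were higher in foragers than in nurses. Mrjp8 had a lowest value of 24.8, a median of 95.1 and a highest of 252 CPM in the 46 forager libraries, against 22.6, 69.2 and 163 CPM in the 46 nurse libraries. Mrjp9 had a lowest of 65.6, a median of 121 and a highest of 223 CPM in foragers, against 19.5, 100.2 and 246 CPM in nurses. The ranges of the 2 roles overlapped for both genes, and the forager medians were the higher ones. In the fit, Mrjp8 was 0.34 ± 0.12 higher in foragers (1.27-fold, adjusted p = 0.0222, edgeR) and Mrjp9 0.42 ± 0.09 higher (1.34-fold, adjusted p = 0.000248, edgeR). Of all genes tested, 15.2% passed as higher in foragers and 30.1% passed in either direction, so a pass was a common outcome in this contrast. These changes were modest beside others: 422 of the 1028 genes that rose had a larger fold change than Mrjp8, and 266 a larger one than Mrjp9.

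The role difference of Mrjp8 was not carried by every subset of libraries. Some replicate numbers have a second library, marked #2 in the labels, which do not say whether it is a second bee. The difference lost its pass in 6 of 20 alternatives: without colony 107 (0.28, adjusted p = 0.139), colony 115 (0.32, adjusted p = 0.0758) or colony 122 (0.23, adjusted p = 0.128), without replicate 2 (0.38, adjusted p = 0.0783), without the #2 libraries (0.37, adjusted p = 0.0756), and on counts summed per colony, role and day (0.32, adjusted p = 0.0987, edgeR). That of Mrjp9 passed under each of the 20 alternatives run, between 0.29 and 0.64. Without the 5 libraries that went against their role in Mrjp1, the differences were 0.41 ± 0.12 for Mrjp8 (adjusted p = 0.00586, edgeR) and 0.47 ± 0.10 for Mrjp9. Jelly transcripts filled much less of a forager library: Mrjp1 to Mrjp7 took a median of 0.725% of counts in foragers and 10.6% in nurses, and the median TMM factor was 1.08 in foragers and 0.924 in nurses. With library totals in place of these factors the median of all genes moved to 0.24 and the split of calls to 4343 higher and 295 lower, from 1028 higher and 1002 lower, while Mrjp8 came to 0.56 and Mrjp9 to 0.64, both still above that median.

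Both genes were also higher at day 26 than at day 7. Mrjp8 was 0.44 ± 0.12 higher (1.36-fold, adjusted p = 0.00348, edgeR) and Mrjp9 0.30 ± 0.09 higher (1.23-fold, adjusted p = 0.0130, edgeR), where 13.7% of genes passed as higher and 26.1% in either direction. The Mrjp8 difference did not pass without colony 107 (0.34, adjusted p = 0.0630). That of Mrjp9 lost its pass in 5 of 20 alternatives: without replicate 2 (0.25, adjusted p = 0.171), replicate 3 (0.31, adjusted p = 0.0556), the #2 libraries (0.23, adjusted p = 0.139), colony 107 (0.28, adjusted p = 0.0530) or colony 122 (0.22, adjusted p = 0.0696, edgeR).

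The 4 combinations of role and day separated the 2 genes. Mrjp8 averaged 118.6 ± 45.8 CPM in foragers at day 26, 86.3 ± 31.7 CPM in nurses at day 26, 82.6 ± 43.6 CPM in foragers at day 7 and 66.4 ± 29.1 CPM in nurses at day 7 (SD, n = 24, 24, 22 and 22). Mrjp9 averaged 127 ± 42.1 CPM in foragers at day 26, 119 ± 44.3 CPM in nurses at day 26, 129.8 ± 42.7 CPM in foragers at day 7 and 79.8 ± 29.4 CPM in nurses at day 7 (SD, same n). For Mrjp8 the old foragers stood above the other 3 combinations, and for Mrjp9 the young nurses stood below them.

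**Figure D1:**
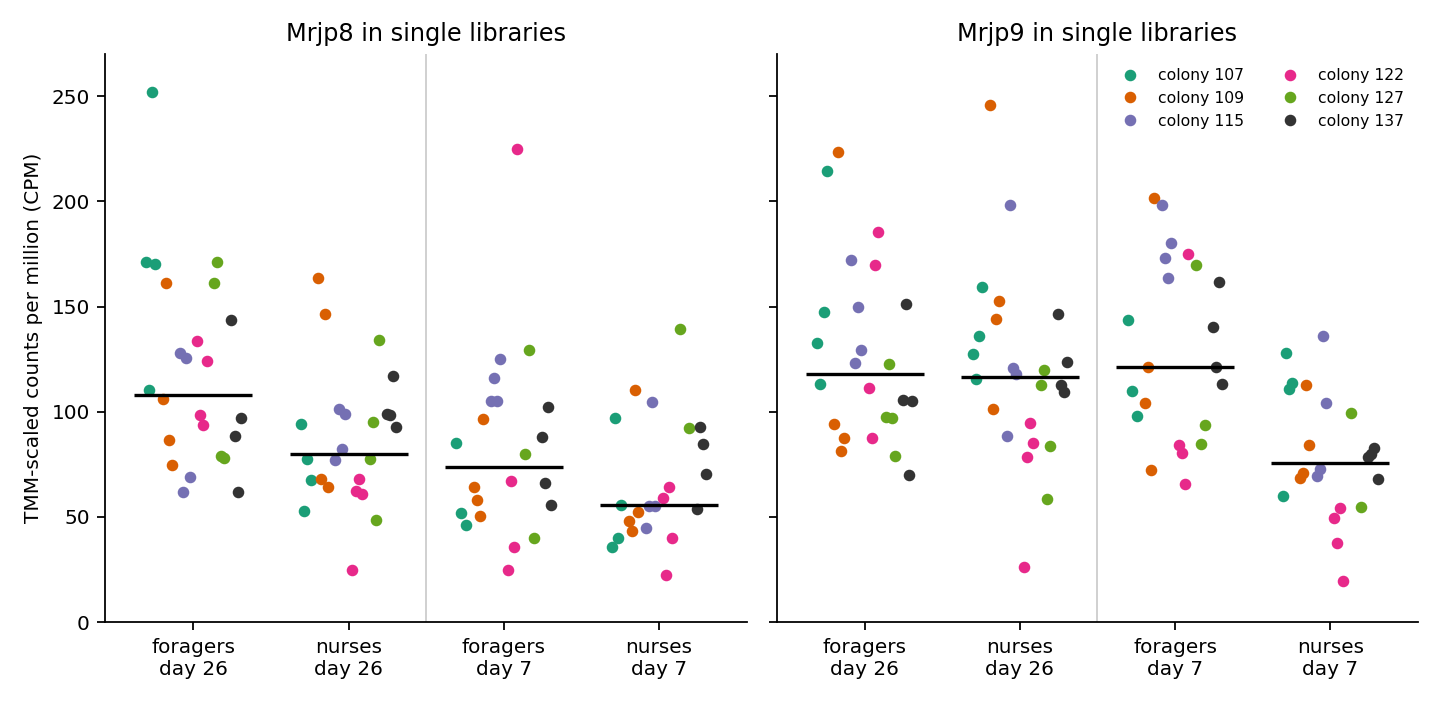
Mrjp8 (left) and Mrjp9 (right) in 92 libraries, as TMM-scaled CPM on a linear axis, by role and day. Each point is a library coloured by origin colony and each black line the median of its combination, which for Mrjp9 lies at 118, 117 and 121 CPM in foragers and nurses at day 26 and foragers at day 7, and at 75.5 CPM in nurses at day 7.

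At day 7, Mrjp9 rose in foragers. Its lowest, median and highest values were 65.6, 121 and 202 CPM in foragers, against 19.5, 75.5 and 136 CPM in nurses. The difference was 0.72 ± 0.14 (1.64-fold, adjusted p = 5.56e-05, edgeR), where 9.14% of genes passed as higher and 20.2% in either direction. The forager mean was the higher one in 6 of 6 colonies, and in 3 of them no forager library overlapped a nurse library. Such separations, here and by colony below, rest on groups of 2 to 4 libraries. How many of all genes separate in the same way was not counted, so they are descriptions. Mrjp8 at day 7 had 24.8, 73.6 and 225 CPM in foragers, against 22.6, 55.5 and 139 CPM in nurses, and its difference of 0.21 ± 0.17 did not pass (adjusted p = 0.435, edgeR, 95% interval -0.13 to 0.56). Where library totals replaced the TMM factors, that difference was 0.45 and passed (adjusted p = 0.0344, edgeR), with the median of all genes moved as above.

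At day 26 the role difference of Mrjp8 passed and that of Mrjp9 did not, with both estimates above 0 as at day 7. Mrjp8 had a lowest of 61.6, a median of 108 and a highest of 252 CPM in foragers, against 24.5, 79.9 and 163 CPM in nurses. The difference was 0.47 ± 0.16 (1.38-fold, adjusted p = 0.0330, edgeR), where 8.77% of genes passed as higher and 17.7% in either direction. It lost its pass in 9 of 20 alternatives, with the highest adjusted p without colony 107 (0.31, adjusted p = 0.314), and stayed above 0 in all of them. Mrjp9 at day 26 had 69.8, 118 and 223 CPM in foragers, against 26.2, 117 and 246 CPM in nurses, and its difference of 0.13 ± 0.13 did not pass (adjusted p = 0.541, edgeR, 95% interval -0.13 to 0.39). Without colony 122 that difference was -0.04.

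The contrasts along the days used the same group means, so the split seen in them is not a separate finding. For each gene, the day difference in foragers minus that in nurses equals, by construction, the role difference at day 26 minus that at day 7. That quantity is the interaction tested below. In nurses, Mrjp9 was 0.59 ± 0.14 higher at day 26 than at day 7 (1.51-fold, adjusted p = 0.000975, edgeR), with 6.52% of genes passing as higher and 13.4% in either direction, and the day 26 mean was the higher one in 6 of 6 colonies. It did not pass without the #2 libraries (0.46, adjusted p = 0.0725, edgeR). Mrjp8 in nurses was 0.31 ± 0.17 higher, which did not pass (adjusted p = 0.245, edgeR). In foragers, Mrjp8 was 0.57 ± 0.17 higher at day 26 than at day 7 (1.48-fold, adjusted p = 0.0109, edgeR), with 9.7% of genes passing as higher and 18.9% in either direction, although not without colony 107 (0.37, adjusted p = 0.190) or without replicate 1 (0.48, adjusted p = 0.124, edgeR). Mrjp9 in foragers differed by 0.003 ± 0.13 (adjusted p = 0.991, edgeR, 95% interval -0.26 to 0.26), and its sign turned in 5 of 20 alternatives.

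Ordered by level, Mrjp8 ran from nurses at day 7 through foragers at day 7 and nurses at day 26 to foragers at day 26, and only the last step, between the roles at day 26, passed. Foragers at day 7 and nurses at day 26, a contrast added after seeing the data, differed by -0.10 ± 0.17 in Mrjp8 (adjusted p = 0.734) and by 0.13 ± 0.13 in Mrjp9 (adjusted p = 0.540, edgeR), where 23.2% of genes passed. Mrjp9 ran from nurses at day 7 through nurses at day 26 and foragers at day 26 to foragers at day 7, and only its first step, between the days in nurses, passed. Between the ends of the usual course of adult life, foragers at day 26 and nurses at day 7, both genes rose by a similar amount: Mrjp8 by 0.78 ± 0.17 (1.72-fold, adjusted p = 0.000168, edgeR) and Mrjp9 by 0.72 ± 0.14 (1.65-fold, adjusted p = 1.42e-05, edgeR). In that contrast 18% of genes passed as higher and 36% in either direction.

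Whether the role difference itself changed with the day was tested as an interaction. Neither gene passed over all genes: Mrjp8 gave 0.25 ± 0.24 (adjusted p = 0.720, edgeR) and Mrjp9 -0.59 ± 0.19 (unadjusted p = 0.00263, adjusted p = 0.120, edgeR), where 0.829% of genes passed. A gene that passed at one day and not at the other is thus not shown, by this test alone, to differ between the days.

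The count of Mrjp8 over that of Mrjp9 in the same library does not depend on how libraries are scaled. The level of this ratio reflects how each transcript is captured, so differences between groups alone were read. Its lowest, median and highest values were 0.5, 0.905 and 1.71 in foragers at day 26, 0.419, 0.727 and 1.60 in nurses at day 26, 0.295, 0.568 and 1.53 in foragers at day 7, and 0.361, 0.758 and 2.04 in nurses at day 7. Ratios above 1 came from 9 of 24, 3 of 24, 2 of 22 and 8 of 22 libraries of these combinations. The young foragers thus had the lowest median and the old foragers the highest.

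Over both days the log2 ratio did not differ by role (-0.11, permutation p = 0.378), nor over both roles by day (0.18, permutation p = 0.102). It did differ by role within each day, and by day in foragers. These within-day and within-role contrasts and their interaction were added after the pattern of levels had been seen. The 11 ratio tests, all two-sided permutations, were adjusted together. Labels were permuted within colonies, except for the interaction, where residuals were permuted over all libraries without regard to colony. At day 7 the log2 ratio averaged -0.74 ± 0.51 in the forager libraries and -0.28 ± 0.61 in the nurse libraries (SD, n = 22 for both), a difference of -0.54 over colonies (adjusted permutation p = 0.0081) that was below 0 in 6 of 6 colonies and did not pass without the #2 libraries (-0.50, adjusted permutation p = 0.066). At day 26 it averaged -0.12 ± 0.50 in the forager libraries and -0.45 ± 0.43 in the nurse libraries (SD, n = 24 for both), a difference of 0.33 (adjusted permutation p = 0.029), above 0 in 5 of 6 colonies. It lost its pass in 6 of 14 alternatives: without colony 107 (0.18, adjusted permutation p = 0.259), colony 109 (0.30, 0.0895), replicate 1 (0.29, 0.187), replicate 3 (0.33, 0.0959), the #2 libraries (0.32, 0.066) or the second library of each close pair (0.31, 0.0557).

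From day to day, the log2 ratio was 0.62 higher at day 26 than at day 7 in foragers (adjusted permutation p = 0.000825), in 6 of 6 colonies. In nurses it was 0.25 lower at day 26, which did not pass (-0.25, adjusted permutation p = 0.0933). The difference between the role differences at the 2 days was 0.87 (adjusted permutation p = 7.33e-05, residuals permuted), and it passed under each of the 14 alternatives run, between 0.70 and 1.13.

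**Figure D2:**
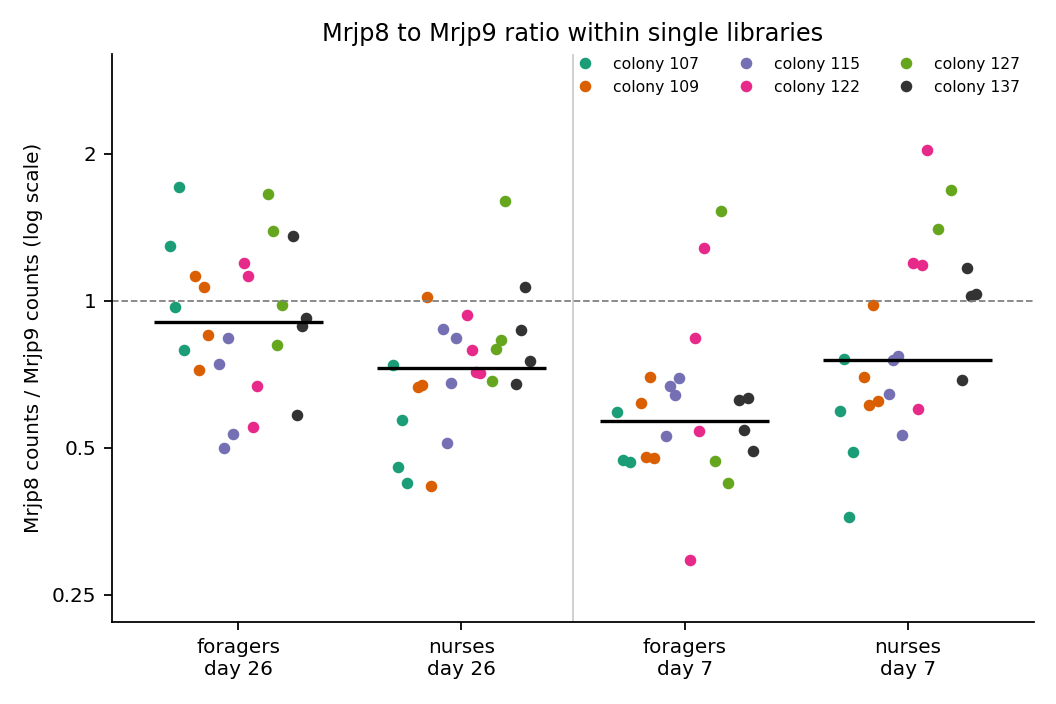
Mrjp8 counts over Mrjp9 counts in each of 92 libraries, on a log axis, by role and day. Points are libraries coloured by colony, black lines are medians (0.905, 0.727, 0.568 and 0.758 from left to right), and the dashed line marks equal counts.

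The colonies differed in Mrjp9 (test over 5 degrees of freedom, adjusted p = 0.00227, edgeR), where 17.8% of genes passed, and not in Mrjp8 (adjusted p = 0.376). The Mrjp9 call was lost without replicate 2 (adjusted p = 0.129), and Mrjp8 passed without the 4 libraries of departing mitochondrial profile (adjusted p = 0.0250, edgeR). Over the 24 groups, means ran from 46.5 CPM (nurses of colony 122 at day 7) to 176 CPM (foragers of colony 107 at day 26) for Mrjp8, 3.79-fold, and from 40.2 CPM (nurses of colony 122 at day 7) to 179 CPM (foragers of colony 115 at day 7) for Mrjp9, 4.45-fold. Of the 23 pairs of neighbours in each of these orders, none had ranges that stood apart. The colony by role test (adjusted p = 0.720 for Mrjp8 and 0.605 for Mrjp9) and the colony by day test (0.721 and 0.768) did not pass. Of all genes tested, 0 passed the colony by role test by edgeR, 512 had an unadjusted p under 0.05 and 7 passed by DESeq2, and 3 genes (0.0444%) passed the colony by day test.

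Colony 122 had the lowest mean Mrjp9 of all colonies. At day 26 its foragers had 112, 87.5, 169.7 and 185 CPM, against 26.2, 78.2, 94.7 and 85.1 CPM in its nurses. At day 7 its foragers had 84.0, 80.2, 65.6 and 175 CPM, against 49.5, 37.6, 54.2 and 19.5 CPM in its nurses. No nurse library of this colony reached a forager library at day 7. At day 26 the roles overlapped through 1 nurse library of 94.7 CPM and 1 forager library of 87.5 CPM, the one with 68000 CPM of Mrjp1. Mrjp9 in colony 122 was 0.56 ± 0.13 below the mean of the other colonies (adjusted p = 0.0133, edgeR), where 1.11% of genes passed, although not without replicate 1 (adjusted p = 0.0899) or replicate 2 (adjusted p = 0.211). It was lower than in colonies 107, 109 and 115 taken singly (by 0.67, 0.61 and 0.77, adjusted p = 0.0101, 0.0275 and 0.00217, edgeR, with 2.24%, 2.07% and 1.18% of genes passing). Its differences from colonies 127 and 137, -0.28 and -0.46, did not pass (adjusted p = 0.477 and 0.0811, edgeR). Without colony 122 the other 5 colonies did not differ (adjusted p = 0.0924). Its role difference of 1.11 ± 0.23 was the one difference between roles within a single colony that passed for either gene (adjusted p = 0.0382, edgeR), where 0.163% of genes passed. In the other colonies, where neither gene passed, 14.8% of genes did so in colony 107, 5.61% in 109, 0.829% in 115, 0.237% in 127 and 6.13% in 137. It lost its pass in 5 of 13 alternatives: with no filter on low counts (1.08, adjusted p = 0.0656, where 0 genes passed and 1038 had an unadjusted p under 0.05), without replicate 1 (1.11, adjusted p = 0.0665), without replicate 3 (0.79, adjusted p = 0.503), without the second library of each close pair (1.16, adjusted p = 0.0688), and without the 4 libraries of departing mitochondrial profile (0.94, adjusted p = 0.0840, edgeR), which include the forager at day 7 with 175 CPM. By DESeq2 it passed (1.10, adjusted p = 0.000785).

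Mrjp8 in colony 122 also separated the roles at day 26. Foragers had 134, 98.5, 93.8 and 124 CPM, against 24.5, 62.1, 67.8 and 60.6 CPM in nurses, with no overlap. At day 7 foragers had 24.8, 67.3, 35.5 and 225 CPM, against 59.1, 22.6, 64.3 and 39.9 CPM in nurses. The 225 CPM came from the shallowest library, where it rested on 45 counts, and the other 3 forager libraries overlapped the nurse libraries.

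The foragers of colony 107 at day 26 had the highest mean Mrjp8 of the 24 groups, although the colony as a whole did not stand above the others (-0.06 ± 0.16, adjusted p = 0.867, edgeR). At day 26 its foragers had 171, 110.2, 252 and 170.0 CPM, against 93.9, 52.8, 77.7 and 67.4 CPM in nurses, with no overlap. At day 7 its foragers had 84.9, 51.8 and 45.9 CPM, against 35.6, 97.2, 40.1 and 55.6 CPM in nurses, and the groups overlapped. All 4 old foragers of this colony thus stood above all its young foragers, while Mrjp9 moved less. Mrjp9 had 133, 113, 147 and 214 CPM in foragers at day 26, against 127, 116, 136 and 159 CPM in nurses at day 26. At day 7 it had 144, 109.9 and 98.0 CPM in foragers, against 59.9, 128, 111 and 114 CPM in nurses. The roles overlapped on both days.

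Colony 115 separated the roles in both genes at day 7. Mrjp9 had 199, 173, 164 and 180.2 CPM in foragers, against 69.3, 72.8, 136 and 104 CPM in nurses. Mrjp8 had 105, 116, 105 and 125 CPM in foragers, against 44.7, 55.1, 105 and 55.3 CPM in nurses. For Mrjp8 the lowest forager library (104.9 CPM) was barely above the highest nurse library (104.7 CPM), which was one of those whose Mrjp1 went against its role (1107 CPM). At day 26 the roles overlapped in both: Mrjp9 had 172, 123, 150.0 and 129 CPM in foragers, against 88.3, 198, 121 and 118 CPM in nurses. Mrjp8 had 128, 61.6, 126 and 69.0 CPM in foragers, against 77.2, 101, 82.1 and 98.8 CPM in nurses.

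In colony 137 Mrjp9 separated the roles at day 7 and not at day 26. At day 7 it had 140.4, 121, 162 and 113 CPM in foragers, against 78.2, 79.7, 82.7 and 68.1 CPM in nurses. At day 26 it had 106, 151, 69.8 and 105 CPM in foragers, against 146, 113, 109.6 and 124 CPM in nurses. All 4 old nurses stood above all 4 young nurses, the one colony where Mrjp9 of the nurses did not overlap between days. Mrjp8 overlapped on both days, with 143, 88.4, 62.0 and 96.8 CPM in foragers, against 98.7, 98.2, 117 and 92.8 CPM in nurses at day 26. At day 7 Mrjp8 had 88.0, 66.1, 102 and 55.7 CPM in foragers, against 53.9, 92.9, 84.8 and 70.3 CPM in nurses.

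Colonies 109 and 127 showed no separation of the roles in either gene. In colony 109, Mrjp9 had 94.4, 223, 81.4 and 87.4 CPM in foragers at day 26, against 246, 101, 144 and 153 CPM in nurses, and 104, 121, 72.4 and 202 CPM in foragers at day 7, against 68.7, 70.7, 113 and 84.1 CPM in nurses. Mrjp8 there had 106, 161, 86.8 and 74.6 CPM in foragers at day 26, against 163, 68.0, 147 and 64.0 CPM in nurses, and 64.4, 58.1, 50.6 and 96.3 CPM in foragers at day 7, against 48.0, 43.2, 110.3 and 52.5 CPM in nurses. A library high in one gene was mostly high in the other, such as the forager at day 26 with 161 and 223 CPM. In colony 127, Mrjp8 had 161, 171, 78.8 and 77.8 CPM in foragers at day 26, against 77.3, 95.3, 48.7 and 134 CPM in nurses, and 80.0, 129 and 39.7 CPM in foragers at day 7, against 139 and 92.4 CPM in nurses. Mrjp9 there had 97.6, 123, 96.9 and 79.1 CPM in foragers at day 26, against 113, 119.7, 58.6 and 83.7 CPM in nurses, and 169.7, 84.6 and 93.7 CPM in foragers at day 7, against 99.3 and 54.8 CPM in nurses. At day 7, Mrjp8 averaged higher in nurses than in foragers only in colony 127. Its 2 nurse libraries at that day both carry replicate number 1, and the labels do not say whether they are separate bees.

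**Figure D3:**
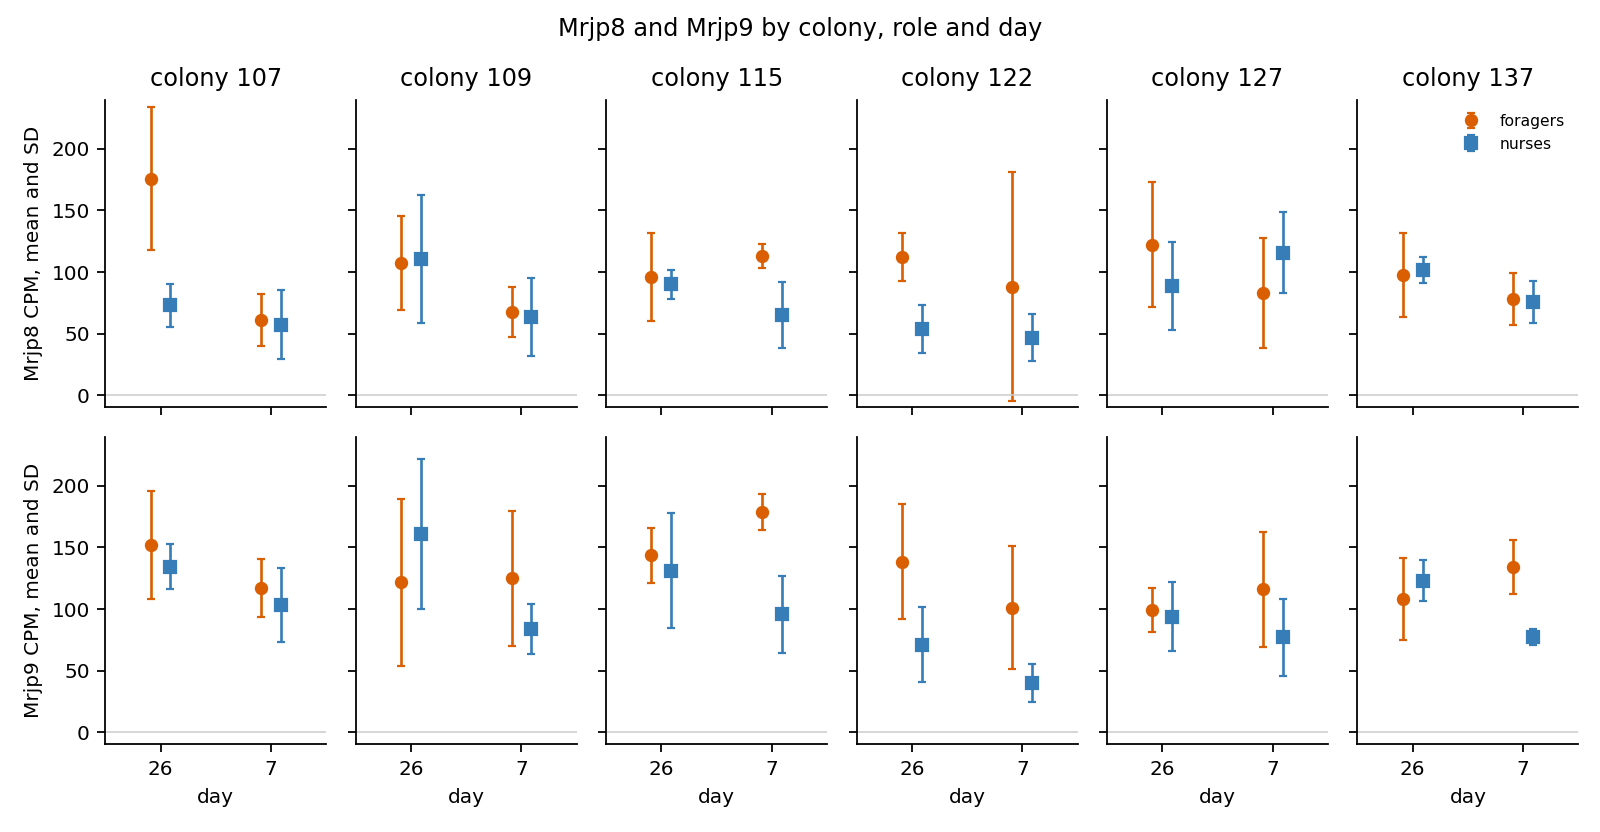
Mean CPM of Mrjp8 (top) and Mrjp9 (bottom) by origin colony, with day 26 left of day 7 in each panel; bars are SD over 2 to 4 libraries. Orange circles are foragers and blue squares nurses; at day 7 the forager mean of Mrjp9 lies above the nurse mean in 6 of 6 colonies.

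The 2 genes rose and fell together from library to library. Within foragers at day 26 their log2 CPM correlated at r = 0.505 and Spearman's rho = 0.476 (n = 24, adjusted permutation p = 0.0119 and 0.0208), and within nurses at day 26 at r = 0.735 and rho = 0.489 (n = 24, adjusted permutation p = 0.00048 and 0.0208). Within foragers at day 7 r was 0.712 and rho 0.72 (n = 22, adjusted permutation p = 0.00048 and 0.00104), and within nurses at day 7 r was 0.531 and rho 0.494 (n = 22, adjusted permutation p = 0.0119 and 0.0208). The 4 relations were adjusted together. Libraries were permuted without regard to colony, so differences between colonies enter these correlations and p-values. The #2 libraries and close pairs counted as separate libraries. Without the 2 libraries farthest from the median of Mrjp8, r was 0.551, 0.383, 0.705 and 0.428 in the same order, so that of the nurses at day 26 rested in part on 2 libraries.

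**Figure D4:**
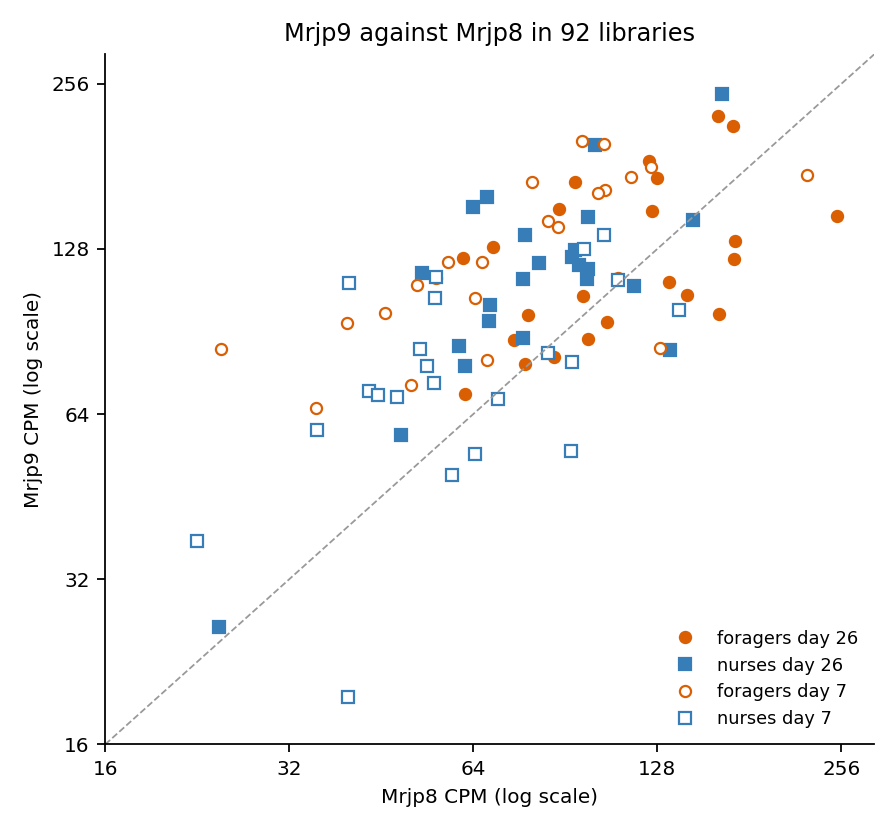
Mrjp9 against Mrjp8 in 92 libraries, both as CPM on log axes, foragers in orange and nurses in blue, day 26 filled and day 7 open. The dashed line marks equal values, and points rise together in each combination (r = 0.505 in foragers and 0.735 in nurses at day 26, 0.712 in foragers and 0.531 in nurses at day 7).

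No other gene followed either of them as closely. Across the 92 libraries, Mrjp9 ranked first of 6752 genes by correlation with Mrjp8, and Mrjp8 first with Mrjp9 (r = 0.64 in both rankings), and the same held for deviations from the 24 group means (r = 0.63). These correlations share library depth and composition and are descriptions. LOC552811 came second for both (r = 0.55 with Mrjp8 and 0.56 with Mrjp9), and was itself 0.83 higher in foragers and 0.70 higher at day 26. For Mrjp8, LOC410683, LOC550671 and LOC724114 followed at 0.54, 0.53 and 0.53. For Mrjp9, LOC725165 and LOC412163 stood at 0.54 and 0.48, and TpnCIIIa, a troponin C of muscle, at 0.50. Among deviations, LOC113218965 was in the first 5 of both, at 0.53 with Mrjp8 and 0.45 with Mrjp9. LOC107963967, LOC408668 and LOC725718 completed the list of Mrjp8 at 0.47, 0.46 and 0.46, and LOC726737, LOC100576734 and LOC100578928 that of Mrjp9 at 0.45, 0.45 and 0.44.

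In the chromosome, the 2 genes sit side by side at one end of the royal jelly cluster. The RefSeq annotation of the assembly Amel_HAv3.1 places Mrjp7 before Mrjp8, a long noncoding RNA gene between Mrjp8 and Mrjp9, and Y-h, a yellow gene, after Mrjp9. By role, the nearest tested neighbours went the other way. Mrjp7, next to Mrjp8, was 3.72 ± 0.28 lower in foragers (13.2-fold, adjusted p = 4.53e-17, edgeR), and Mrjp2, the next tested gene, 4.12 ± 0.33 lower (17.4-fold, adjusted p = 6.84e-16, edgeR). By day both had estimates above 0, as Mrjp8 and Mrjp9 did. Y-h reached at most 5 counts in a library and Y-e3, at the other end of the cluster, at most 31, too few to be tested.

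Of the 9 jelly genes, 3 rose in foragers (Mrjp6, Mrjp8 and Mrjp9) and 6 fell, where 15.2% of all genes tested passed as higher and 14.8% as lower. The median was -3.52 over the 9 and 0.01 over all genes. Mrjp3, a principal jelly protein, fell most (-4.94 ± 0.37, 30.7-fold, adjusted p = 2.15e-17, edgeR), and Mrjp4 fell by 4.11 ± 0.35. Mrjp6 was 0.97 ± 0.21 higher (1.96-fold, adjusted p = 0.000146, edgeR), more than Mrjp8 or Mrjp9, and like Mrjp9 it was higher in foragers at day 7 (1.64 ± 0.31, adjusted p = 4.85e-05) and did not pass at day 26 (0.31 ± 0.28, adjusted p = 0.498, edgeR). Between days, 2 of the 9 rose, Mrjp8 and Mrjp9, where 13.7% of all genes passed as higher, and the other 7 did not pass, from -0.04 ± 0.25 in Mrjp5 to 0.73 ± 0.29 in Mrjp2 (adjusted p = 0.0578, edgeR). The median of the 9 was 0.44 by day, against 0.004 over all genes. The estimates of Mrjp2, Mrjp3, Mrjp1 and Mrjp7 were larger than those of Mrjp8 and Mrjp9 with SEs of 0.25 to 0.31, so the day contrast does not set the pair apart from them. The family shares sequence, and reads that aligned to more than 1 place were set aside. Their share was 3.02 ± 0.593% of a forager library's reads (SD, n = 46) and 3.70 ± 0.677% of a nurse library's (SD, n = 46). Whether such reads belonged to these genes was not tested.

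**Figure D5:**
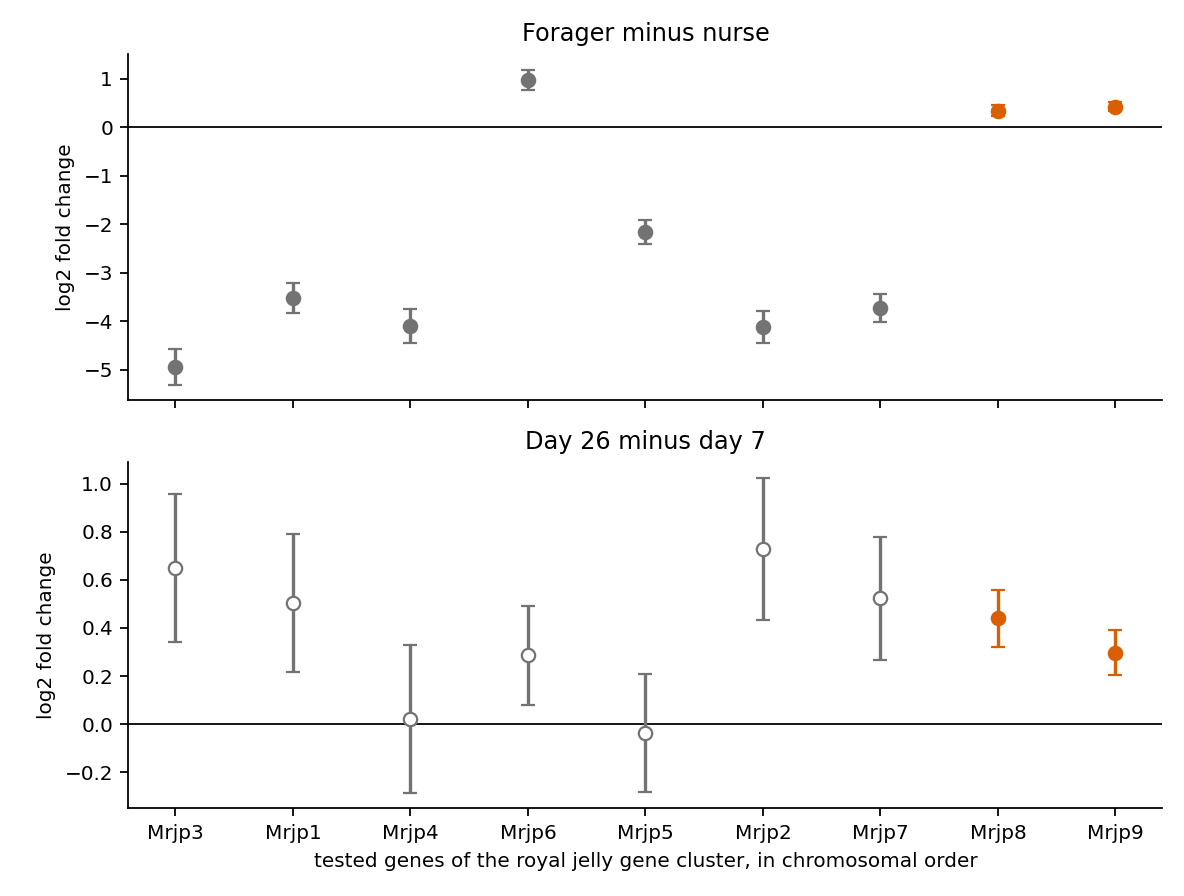
Log2 fold change ± SE of the 9 jelly genes in chromosomal order, by role (top) and by day (bottom). Orange marks Mrjp8 and Mrjp9, filled points passed an adjusted p of 0.05 and open points did not; at the right end both genes lie above 0 in both panels, next to Mrjp7 at -3.72 by role.

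Within a library, Mrjp8 over Mrjp1 was 3.75 higher on the log2 scale in foragers than in nurses, and Mrjp9 over Mrjp1 3.86 higher, each above 0 in 12 of 12 combinations of colony and day (permutation p = 1e-05 for both, the smallest that 100000 permutations can give, adjusted p = 5.5e-05). Mrjp1 alone was 3.52 ± 0.32 lower in foragers (adjusted p = 2.32e-14, edgeR), while Mrjp8 was 0.34 and Mrjp9 0.42 higher. The role differences of these ratios thus mainly restate that of Mrjp1. By day these ratios differed by 0.09 and -0.09 and did not pass (adjusted permutation p = 0.822 for both).

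Of 4 genes with yellow symbols, 1 was expressed enough to be tested. Y-f, a yellow gene outside the cluster, was 0.45 ± 0.07 higher in foragers (1.36-fold, adjusted p = 3.63e-07, edgeR) and 0.40 ± 0.07 higher at day 26 (1.32-fold, adjusted p = 4.36e-06, edgeR), close in size to Mrjp8 and Mrjp9. It passed on both days, at 0.40 ± 0.10 on day 7 and 0.49 ± 0.10 on day 26 (adjusted p = 0.00273 and 7.87e-05, edgeR). Its correlation over libraries ranked 159th for Mrjp8 (r = 0.36) and 301st for Mrjp9 (r = 0.28) of 6752.

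Since both proteins are known from venom, the venom genes were set beside them. Of 11 listed, 5 were in the table and tested. In foragers 5 of 5 fell, where 14.8% of all genes did, with a median of -1.89: Apamin, a neurotoxic peptide (-2.01 ± 0.29), Melt, the membrane-lysing melittin (-1.61 ± 0.26), Mcdp, the mast cell degranulating peptide (-2.14 ± 0.37), Pla2, venom phospholipase (-1.89 ± 0.39), and the weaker Acph-1 (adjusted p of the first 4 from 5.75e-08 to 7.04e-05, edgeR). At day 26 the same 4 fell, where 12.4% of all genes did, and Acph-1, a venom acid phosphatase, did not (0.18 ± 0.10, adjusted p = 0.175, edgeR), with a median of -2.46. Mrjp8 and Mrjp9 moved the opposite way in both contrasts. Over libraries, of the same 4 genes Pla2 had the lowest correlations, 39th from the lowest of 6752 genes for Mrjp8 (r = -0.41) and 68th for Mrjp9 (r = -0.37). Mcdp, Apamin and Melt stood 49th, 59th and 87th from the lowest for Mrjp8 (r = -0.40, -0.40 and -0.38). For Mrjp9 they stood 236th, 509th and 593rd (r = -0.31, -0.25 and -0.23). In deviations from the group means, Pla2 had -0.09 with Mrjp8 and -0.16 with Mrjp9, with 2249th and 1112th places from the lowest. Mcdp, Apamin and Melt there had -0.18, -0.22 and -0.20 with Mrjp8, and -0.21, -0.10 and -0.10 with Mrjp9.

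Enzymes of nectar processing moved in the same direction as the pair. Of 6 listed sugar enzymes 3 were tested, and 3 of 3 rose in both contrasts, where 15.2% of all genes rose by role and 13.7% by day, with medians of 0.93 by role and 0.88 by day. Hbg3, the alpha-glucosidase of the foragers' hypopharyngeal glands, was 1.92 ± 0.20 higher in foragers (3.79-fold, adjusted p = 3.31e-12, edgeR) and 1.05 ± 0.19 higher at day 26. AGLU2, another alpha-glucosidase, was 0.93 ± 0.10 higher in foragers (1.90-fold, adjusted p = 2.82e-12, edgeR) and 0.82 ± 0.10 higher at day 26, and Hbg2 0.39 ± 0.12 and 0.88 ± 0.12 higher. AGLU2 ranked 10th of 6752 genes in its correlation with Mrjp8 (r = 0.50) and 7th with Mrjp9 (r = 0.47), and Hbg3 44th (r = 0.45) and 9th (r = 0.46), while Hbg2 ranked 216th (r = 0.34) and 678th (r = 0.21). In deviations from the group means the correlations were lower, 0.23 with Mrjp8 and 0.20 with Mrjp9 for AGLU2, 0.29 and 0.32 for Hbg3, and -0.02 and -0.09 for Hbg2.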

How the data were processed

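Whole-bee RNA was sequenced by TagSeq, per the labels. The deposited table holds read counts per gene, with 5 summary rows that name no gene (in the 92 libraries, a mean of 67.7% of reads not aligned, 16.1% on no feature, 3.36% not uniquely aligned and 0.013% ambiguous). FastQC, HISAT2, SAMtools and DESeq2 are named in the submitters' processing notes, with no versions; the genome build is not given in the sources used here. Of 96 labelled samples 93 have a column; the other 3 were not analysed here. A library of 81736 counts, under 10% of the median of 1286245, was left out. Genes passing edgeR's filter (minimum count of 10) were fitted with 24 group means by edgeR 4.0.16 (R 4.3.3, 68 residual degrees of freedom), tested on simulated data first. CPM use TMM factors (0.733 to 1.32). Logs of ratios use an added count of 0.5 and logs of CPM a prior count of 2. Dispersion corresponds to a coefficient of variation of 0.370 for Mrjp8 and 0.293 for Mrjp9. Permutation tests drew 100000 permutations (scipy 1.17.1). DESeq2 1.42.0 was an alternative. Named genes were the pair, family, yellow, venom and sugar genes with up to 4 examples by p, and the 5 most correlated genes per measure; the members and lists were chosen with earlier results of these data known.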

Additional observations from a re-analysis of the deposited data

Results flagged for a closer look

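In 4 groups of 4 libraries, 1 library stood far from the other 3, by Dixon's criterion at 95%. The check was made for 42 combinations of gene and group, and chance flags about 1 in 20. Mrjp9 had 223.3 CPM in forager replicate 2 of colony 109 at day 26, against 81.4 to 94.4 CPM in the others. Mrjp9 had 174.9 CPM in forager replicate 3 of colony 122 at day 7, the shallowest library analysed, against 65.6 to 84.0 CPM. Mrjp8 had 110.3 CPM in nurse replicate 3 of colony 109 at day 7, one of the libraries whose Mrjp1 goes against its role, against 43.2 to 52.5 CPM. Mrjp8 had 24.53 CPM in nurse replicate 1 of colony 122 at day 26, against 60.6 to 67.8 CPM.

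The role difference in the log2 ratio of Mrjp8 to Mrjp9 was 0.8729 higher at day 26 than at day 7, and this difference passed its permutation test (adjusted p = 7.33e-05). That test was added after the pattern of levels in these libraries had been seen. The interaction of neither gene by itself passed (adjusted p = 0.720 for Mrjp8 and 0.120 for Mrjp9, edgeR).

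Forager replicate 1 of colony 107 at day 7, left out for its depth of 81736 counts, still held 5 counts of Mrjp8 and 7 of Mrjp9, above the 3 counts that a count of 0 allows.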

How the results depend on the processing

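The alternatives were DESeq2, its size factors, no filter on low counts, counts summed per colony, role and day, the shallow library kept, a replicate block, an added count of 2 in the ratios, and fits without each replicate number, each colony or the libraries marked #2 (second libraries of a replicate number). Library totals without scaling factors, the fits without libraries that stood apart, and the ratios without each colony were added after seeing the data. Without replicate 1 the fit drops colony 127. The higher Mrjp9 of foragers (0.29 to 0.64) and of foragers at day 7 (0.61 to 0.96), both genes' difference between foragers at day 26 and nurses at day 7, and the interaction of the ratio (0.70 to 1.13, adjusted p from 7.33e-05 to 0.00931) passed in each alternative run for them. The causes of the changes below were not tested; fits without libraries also hold fewer samples.

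Mrjp8 by role came to 0.38 to 0.41 without a replicate number (adjusted p = 0.0783 without replicate 2), 0.37 without the #2 libraries, 0.28, 0.32 and 0.23 without colonies 107, 115 and 122, and 0.32 on summed counts, none of these last 5 passing. Mrjp8 by role at day 26 came to 0.47 to 0.56 without a replicate number, 0.54 without the #2 libraries, 0.31, 0.35 and 0.48 without colonies 107, 122 and 127, 0.44 without the second of each close pair and 0.53 on summed counts, and passed in none of them. At day 7 it passed on library totals (0.45). Mrjp8 by day did not pass without colony 107 (0.34), nor in foragers without colony 107 (0.37) or without replicate 1 (0.48, against a highest of 0.70 without replicate 2). Mrjp9 by day was 0.25 to 0.36 without a replicate number, passing only without replicate 1, and did not pass without the #2 libraries (0.23), colony 107 (0.28) or colony 122 (0.22); in nurses it did not pass without the #2 libraries (0.46).

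Differences that did not pass changed sign in a few fits. Mrjp9 by role at day 26 was -0.037 without colony 122. Mrjp9 by day in foragers was -0.101 to 0.088 without a replicate number (-0.0086 without replicate 3), -0.072 and -0.099 without colonies 107 and 122, and -0.017 without the second of each close pair. Mrjp8 between foragers at day 7 and nurses at day 26 was 0.071 on library totals and 0.024 without colony 109. The day difference of Mrjp9 over Mrjp1 was -0.29 to 0.33 without a replicate number and 0.23 without colony 127, and that of Mrjp8 over Mrjp1 -0.18 and -0.024 without colonies 109 and 137.

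The role difference of the ratio at day 26 was 0.29 to 0.46 without a replicate number (passing only without replicate 2), and did not pass without the #2 libraries (0.32), the second of each close pair (0.31), colony 107 (0.18) or colony 109 (0.30). At day 7 it did not pass without the #2 libraries (-0.50, adjusted permutation p = 0.066). Colonies differed in Mrjp8 without the 4 libraries of departing mitochondrial profile (adjusted p = 0.0250), and not in Mrjp9 without colony 122 (adjusted p = 0.0924); without a replicate number the adjusted p of Mrjp9 was 0.0364 to 0.129 by edgeR. Colony 122 against the others gave an adjusted p of 0.0899 and 0.211 without replicates 1 and 2, and its role difference 0.0665 and 0.503 without replicates 1 and 3.

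Genes called by role numbered 4638 on library totals and 1343 without the #2 libraries, against 2030. Those by day numbered 822 to 1332 without a replicate number, against 1764. For the interaction, against 56, there were 11 to 19 without a replicate number, 15 without the #2 libraries, 36, 20, 26, 35 and 27 without colonies 107, 109, 122, 127 and 137, 14 on summed counts and 85 by DESeq2. For the colonies, against 1203, there were 1937 on library totals, 281 to 790 without a replicate number, 442 without the #2 libraries, and 594 and 674 without colonies 107 and 137.

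Forager and nurse libraries of the same colony, day and replicate number did not deviate together. Of 33 such pairs, 6 correlated above 0.1, with a median of -0.02. The #2 libraries were not part of this check. A replicate block changed no call (Mrjp8 by role 0.34, adjusted p = 0.0237; Mrjp9 by role 0.42, adjusted p = 0.000345, edgeR) and gave 2004, 1751, 52 and 1132 genes by role, day, interaction and colony. Low counts limit the pair: the shallowest library held 45 counts of Mrjp8 and 35 of Mrjp9. The lowest counts, 21 of Mrjp8 and 25 of Mrjp9, came from deeper nurse libraries of colony 122 at day 7.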
